A study of Mus musculus with 24 samples.

Results

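Genes for 36 proteins that splice pre-mRNA or form its 3′ end were followed across 24 mouse microarrays. They were 12 SR and SR-like splicing factors (Srsf1 to Srsf7, Srsf9 to Srsf11, Tra2a and Tra2b), 16 heterogeneous nuclear ribonucleoproteins (hnRNPs), 7 cleavage and polyadenylation factors (Papola, Pcf11, Nudt21, Cpsf2, Cpsf3, Cpsf6 and Cstf3) and Sf3b1, the large subunit of the U2 snRNP that contacts the branch point. All were chosen with earlier results of these data known, and within the array annotation they were found by gene symbol. A probe set naming that gene alone represented 32 of the 36, among 17097 genes so represented, and where a gene had several, the one with the largest SD over the arrays stood for it. Srsf5, Srsf7, Hnrnpf and Hnrnpu were not analysed here. The 32 genes had 88 probe sets, between 1 and 6 each, of 28898 in all, and values of the other probe sets are given where they differ.

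The study asked what C/EBPβ, the transcription factor encoded by Cebpb, does in leukaemia of B-cell precursors (preB-ALL) that lack the adaptor protein BLNK. BKO408 was a preB-ALL cell line from Blnk knockout mice, cultured in RPMI1640 medium with 10% FBS and 5 ng/ml IL-7 (4 arrays). BKO408 LAP was that line after retroviral transduction with LAP, an activator isoform of C/EBPβ (4 arrays). It is a single line, so its arrays say nothing of other lines, and no source used here says what vector the control cells carried. The tumours were Blnk preB-ALL from homozygous Blnk knockout mice (5 arrays), LAP/Blnk preB-ALL from Blnk knockout mice with the Cebpb LAP transgene (3 arrays), LAP preB-ALL from Cebpb LAP transgenic mice (4 arrays) and LAP B-ALL from the same transgenic genotype, labelled B-ALL and not preB-ALL (4 arrays). No tumour was treated. The sources used here do not give the promoter of the transgene, the strain, the age or the tissue. Every tumour without the Blnk knockout carried the transgene, so the series holds no leukaemia with neither alteration.

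SR proteins bind exonic enhancers through RNA recognition motifs and recruit the spliceosome through arginine-serine-rich tails, while hnRNPs coat nascent transcripts and often oppose them at nearby sites. The cleavage and polyadenylation machinery reads the signal at the end of a transcript, cuts it and adds the poly(A) tail, and its cleavage factor I subunits Cpsf6 and Nudt21 steer which of several poly(A) sites is used. Many of these genes limit their own output through alternative exons or 3′ ends, so probe sets placed on different transcript ends can differ. In B-lineage cells the best known switch of this kind is the change of immunoglobulin heavy chain from its membrane to its secreted 3′ end.

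The promoters of 4 of the 14 members called in the cell lines are shown because C/EBPβ is a DNA-binding activator and LAP was the factor added. No rule of size chose them: Srsf1, Hnrnpd, Srsf11, Hnrnpdl and Srsf6, not shown, differed more than Hnrnpa2b1. They include the only member with the palindrome searched below, so these 4 do not represent the 14. Each promoter is the 250 bases before the annotated start, read 5′ to 3′ on the gene's strand from RefSeq, build GRCm38.p6. They are those of Cpsf6 (chr10:117376974-117377223, minus strand), Hnrnpa2b1 (chr6:51469895-51470144, minus strand, the first of 2 listed starts), Srsf3 (chr17:29032410-29032659, plus strand) and Nudt21 (chr8:94037040-94037289, minus strand). Capitals mark matches to the palindromic C/EBP motif TTGCGCAA and to CCAAT, searched on both strands. The sequence CCAAT is not counted here as a C/EBP motif.
Cpsf6: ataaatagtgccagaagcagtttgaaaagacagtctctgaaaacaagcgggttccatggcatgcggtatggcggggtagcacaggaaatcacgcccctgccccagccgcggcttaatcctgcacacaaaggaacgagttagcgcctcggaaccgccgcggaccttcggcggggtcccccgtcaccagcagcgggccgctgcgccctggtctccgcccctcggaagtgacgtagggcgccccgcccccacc
Hnrnpa2b1: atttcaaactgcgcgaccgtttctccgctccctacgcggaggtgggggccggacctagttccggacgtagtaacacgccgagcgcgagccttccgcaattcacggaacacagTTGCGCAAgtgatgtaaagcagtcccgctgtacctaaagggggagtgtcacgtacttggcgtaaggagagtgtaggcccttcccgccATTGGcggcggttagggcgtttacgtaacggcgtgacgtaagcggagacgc
Srsf3: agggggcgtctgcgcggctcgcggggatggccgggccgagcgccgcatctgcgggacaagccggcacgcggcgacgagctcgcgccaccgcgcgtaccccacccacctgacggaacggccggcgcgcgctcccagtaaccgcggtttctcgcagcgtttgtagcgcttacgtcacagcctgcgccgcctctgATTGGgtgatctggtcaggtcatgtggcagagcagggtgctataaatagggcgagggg
Nudt21: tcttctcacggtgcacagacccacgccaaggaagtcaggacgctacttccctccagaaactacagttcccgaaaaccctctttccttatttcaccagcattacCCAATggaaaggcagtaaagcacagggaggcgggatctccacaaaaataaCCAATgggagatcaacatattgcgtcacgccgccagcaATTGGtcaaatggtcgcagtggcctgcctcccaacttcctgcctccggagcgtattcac
The palindrome TTGCGCAA occurred once among these promoters, in Hnrnpa2b1. It was present in the same window of 1 of the 35 members with an entry (2.86%) and of 0.185% of 27025 genes, while CCAAT was present in 18 of 35 (51.4%) and in 37.5% of genes. The looser TTGCNNAA, which includes TTGCGCAA, was present in 6 members (17.1%; Hnrnpa2b1, Hnrnpab, Hnrnpdl, Hnrnph1, Pcf11 and Srsf2) against 10.8% of genes. A match is a description of the letters in the window and says nothing of binding. Hnrnpll had no entry.

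The deposited values were log ratios, taken here as base 2, of each probe set to its median, which was 0 within the 8 cell-line arrays and separately within the 16 tumours. They carry differences between arrays of one of these sets but no level, so no gene can be called abundant or absent and cells cannot be compared with tumours in level. The labels do not say whether arrays of a group came from separate cultures or animals, so the p-values reflect only how much these arrays differed, which may be technical. Of 3 Cebpb probe sets, 1 was higher in LAP/Blnk preB-ALL than in Blnk preB-ALL (by 3.64, exact permutation p = 0.0179) and in LAP preB-ALL (by 3.10, exact permutation p = 0.0159), both adjusted to 0.107 over 12 such tests. In BKO408 LAP against BKO408 cells the same probe set differed by 0.15 with overlapping arrays (exact permutation p = 0.0571, adjusted 0.171) and the other 2 by 0.06 and -0.07. No Cebpb probe set thus separated the transduced cells from the others, and the cell-line results rest on the labels alone. In LAP B-ALL 4 the Cebpb probe set that was higher in both groups above lay at -3.11, within the range of the Blnk tumours (-4.50 to -1.94). That array thus stands apart from its label, and results that move without it are given both ways. LAP preB-ALL 2 read -1.41 on the same probe set, against 0.03, 0.05 and 0.19 in the other LAP preB-ALL arrays. The Blnk probe set did not separate knockout from other tumours (LAP/Blnk against LAP preB-ALL, means 0.72 and 0.35), and no source used here places it inside or outside the deleted part. B-lineage identity could not be checked either, because a marker's presence cannot be read from centred ratios. The 32 genes varied about as much as other genes in the cell lines (median SD 0.079 against 0.0758) and more in the tumours (0.354 against 0.278), with Cpsf6 the most variable of them in cells (SD 0.428) and Hnrnpll in tumours (SD 1.09). Taking the probe set of largest SD favours genes with more probe sets. The 32 genes had 88 and all 17097 genes 28898, so the wider spread is not read as a trait of the members. The same limit holds for the shares of genes called below.

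In the BKO408 line, LAP went with higher signal of several SR proteins and of 2 cleavage factors. Of the 32 genes, 14 passed limma's test at an adjusted p under 0.05, 10 of them higher and 4 lower in the LAP cells. Over all 17097 genes 22.3% passed, 10.5% higher and 11.8% lower. The choice of the probe set of largest SD favours the 32 genes here too, so their share is not read as an excess. The median difference was 0.02 among the 32 genes and -0.01 among all genes, and 19 of the 32 differences were positive. With all 24 arrays in a single fit, which lends the tumours' wider spread to the cell lines, none of the 14 passed.

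**Figure D1:**
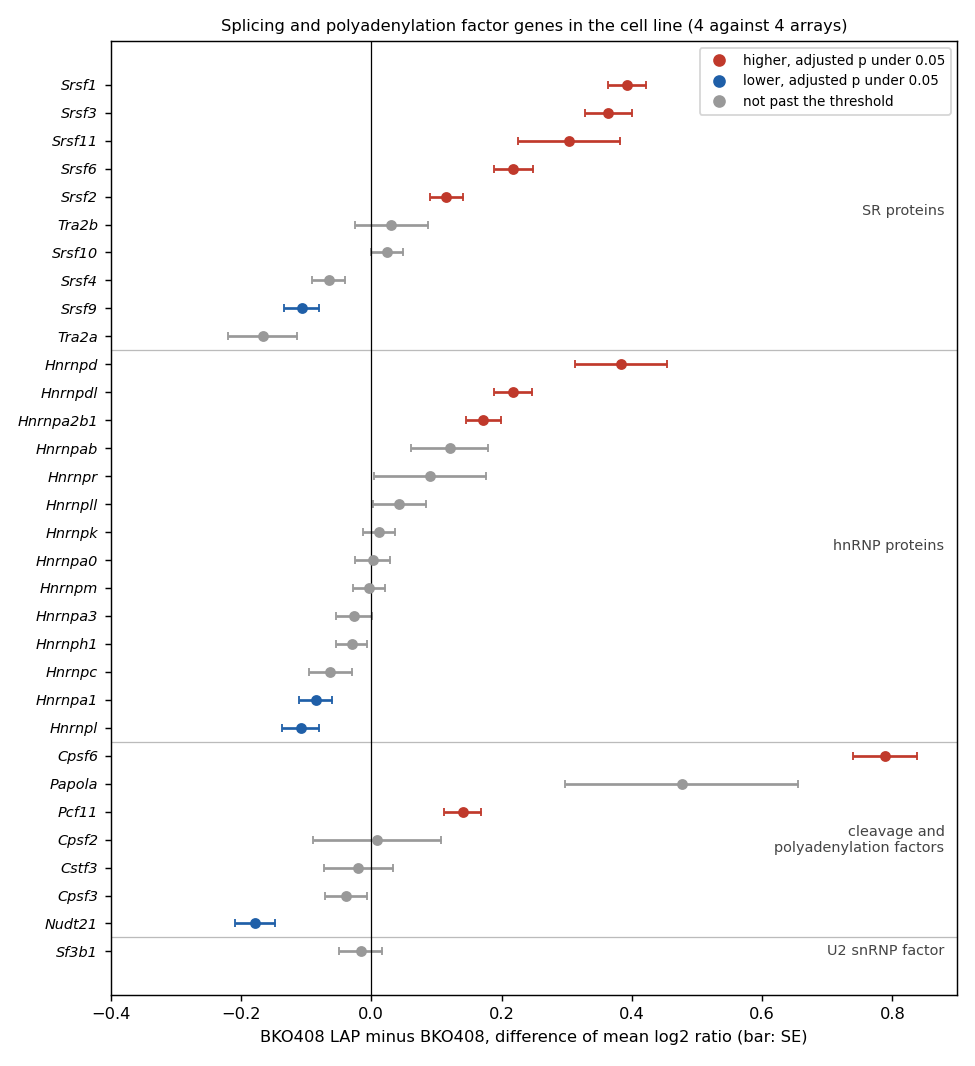
Difference between BKO408 LAP and BKO408 cells (log2 ratio, horizontal axis) for each of the 32 genes, arranged by role, as the estimate and its SE from 4 arrays a group. Cpsf6 stands farthest to the right at 0.79, and Nudt21 has the largest fall among those past the test at -0.18.

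Among the SR proteins, Srsf1, the prototype factor that acts at exonic enhancers, read -0.21, -0.24, -0.16 and -0.22 in the BKO408 arrays and 0.16, 0.22, 0.16 and 0.19 in the BKO408 LAP arrays. All LAP arrays lay above all BKO408 arrays, and the rise was 0.39 ± 0.029 (SE; 1.31-fold; limma, adjusted p = 1.34e-05). Srsf3, the smallest family member, which also couples splicing to mRNA export, read -0.27, -0.28, -0.13 and -0.22 against 0.14, 0.14, 0.13 and 0.14. These groups did not overlap either, the LAP arrays lying close together, and Srsf3 rose by 0.36 ± 0.036 (1.29-fold; limma, adjusted p = 9.84e-05). Srsf6 rose by 0.22 ± 0.029 (1.16-fold; adjusted p = 0.0006) and Srsf2 by 0.12 ± 0.025 (1.08-fold; adjusted p = 0.00975), both again without overlap. The signal of Srsf11 was also called higher, by 0.30 ± 0.078 (adjusted p = 0.0208), although its groups overlapped at the array BKO408 2. Srsf9 fell by 0.11 ± 0.027 (adjusted p = 0.0172). The remaining 4 of 10 measured members of the family did not pass, among them Tra2a, a sequence-specific activator of exon inclusion, at -0.17 (adjusted p = 0.0511).

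Of 14 hnRNPs, 3 rose and 2 fell. Hnrnpd, also known as AUF1, binds AU-rich elements and hastens mRNA decay. It read -0.41, -0.34, -0.06 and -0.20 in BKO408 and 0.18, 0.16, 0.06 and 0.13 in BKO408 LAP, with no overlap, and rose by 0.38 ± 0.071 (1.3-fold; limma, adjusted p = 0.00368). Its relative Hnrnpdl rose by 0.22 ± 0.029 (1.16-fold; adjusted p = 0.000566). Hnrnpa2b1, which recognises UAG motifs and sorts RNAs, read -0.07, -0.09, -0.07 and -0.10 against 0.14, 0.08, 0.07 and 0.08 and rose by 0.17 ± 0.027 (1.13-fold; adjusted p = 0.00151). Its groups were separate but the whole difference was small. The splicing repressors Hnrnpl and Hnrnpa1 fell by 0.11 ± 0.028 (adjusted p = 0.0211) and 0.09 ± 0.026 (adjusted p = 0.0403). Of 15 alternative settings, 7 ended the call of Hnrnpl and 10 that of Hnrnpa1.

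The cleavage and polyadenylation factors held the largest difference of the 32 genes. Cpsf6, the large subunit of cleavage factor I, read -0.44, -0.33, -0.49 and -0.37 in BKO408 and 0.34, 0.33, 0.34 and 0.51 in BKO408 LAP. No array of the LAP cells came near the others, and the rise was 0.79 ± 0.05 (1.73-fold; limma, adjusted p = 5.55e-06). Nudt21, the small subunit of the same factor, read 0.04, 0.11, 0.14 and 0.15 against -0.06, -0.09, -0.04 and -0.09. Its groups were separate in the opposite order, and it fell by 0.18 ± 0.031 (1.13-fold lower; adjusted p = 0.00251). Pcf11, which links the polymerase tail to cleavage and termination, rose by 0.14 ± 0.028 (1.1-fold; adjusted p = 0.00593). Papola, the main nuclear poly(A) polymerase, averaged 0.48 ± 0.18 higher but did not pass (adjusted p = 0.0903), since the BKO408 arrays spread from -0.84 to 0.0041. Cpsf3, the endonuclease, Cpsf2, Cstf3 and Sf3b1 did not pass on this probe set. Over all 32 genes, 9 lay wholly higher and 7 wholly lower in the LAP cells, where 12.3% and 14.4% of all genes did.

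Every probe set of the members was then tested in a fit over probe sets. Of the 88 probe sets, 36 passed in the cell lines (29 higher, 7 lower), when 20.3% of all 28898 did (9.96% higher, 10.3% lower). All 6 of Srsf3 rose (0.13 to 0.36), as did all 4 of Srsf6 (0.15 to 0.22), both of Cpsf6 (0.49 ± 0.11, adjusted p = 0.00966, and 0.79) and both of Pcf11 (0.14 and 0.18). Both of Nudt21 fell (-0.08 and -0.18). For Hnrnpa2b1, 3 of 4 rose (0.17 to 0.21) and the other differed by 0.02. Srsf1 differed among its probe sets: 1 of 4 rose, by 0.39, while the other 3 stood at 0.04 to 0.08 and did not pass. Papola had 2 of 4 probe sets past the test, at 0.21 (adjusted p = 0.00414) and 0.23 (adjusted p = 0.0111), neither of them the one of largest SD. With probe sets averaged Srsf1, Hnrnpd and Hnrnpdl still passed, at 0.14, 0.19 and 0.09, while Srsf2 (0.07), Srsf11 (0.08) and Hnrnpl (-0.05) did not. Of the 24 genes with more than 1 probe set, 6 had a called one and another of opposite sign: Srsf10 (0.24 called, other -0.03), Srsf11 (0.30, -0.06), Hnrnpa3 (0.15, -0.03), Hnrnpdl (0.22, -0.03), Hnrnpl (-0.11, 0.01) and Sf3b1 (-0.14, adjusted p = 0.00298, against 0.02). The opposite values lay near 0. The share of all genes with such a split was not counted, so nothing is read from this number. No source used here says which part of a transcript each probe set covers.

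**Figure D2:**
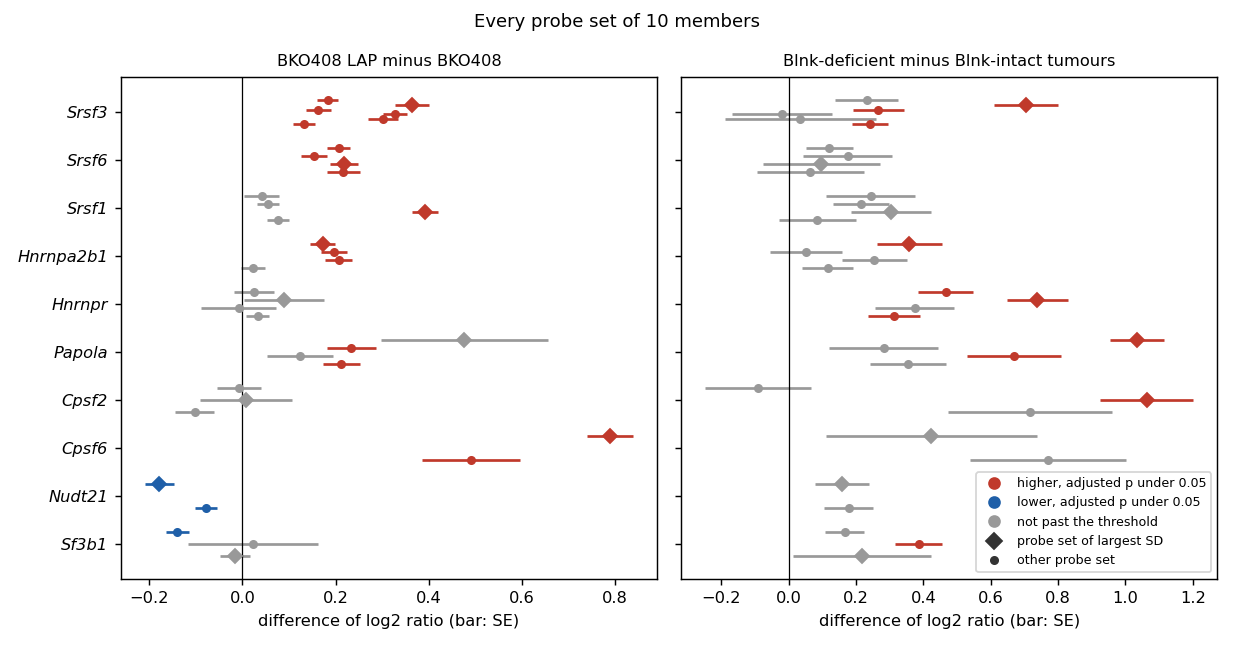
Difference of every probe set (log2 ratio) of 10 genes, BKO408 LAP minus BKO408 on the left and Blnk-deficient minus other tumours on the right, with a diamond for the probe set of largest SD. The 6 probe sets of Srsf3 all lie above 0 on the left, between 0.13 and 0.36, and run from -0.02 to 0.71 on the right.

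In the tumours, Papola, Hnrnpr, Tra2b, Srsf3, Cpsf2 and Hnrnpa0 had higher means in each Blnk-deficient group than in each group without the knockout. Hnrnpll had lower ones. The order of means was not particular to these genes. Srsf1, Srsf2, Srsf4, Tra2a, Hnrnpa1, Hnrnpa2b1 and Hnrnpa3 were also higher in this way. So were Hnrnph1, Hnrnpl, Hnrnpm, Cpsf3, Cstf3 and Nudt21, while Hnrnpab was lower. The genes named first are those that also passed the test in at least 1 of the comparisons given next. The share of all genes with either order was not counted. Papola and Hnrnpr passed the test in all 4 comparisons of a Blnk-deficient group with one that was not, Srsf3 and Cpsf2 in 3, Tra2b and Hnrnpa0 in 2 and Hnrnpll in 1. The values of each in the 16 tumours come first, then the 6 comparisons of groups, which share arrays with each other and so are not independent.

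Papola read 0.61, 0.80, 0.21, 0.35 and 0.56 in the 5 Blnk preB-ALL arrays and 0.74, 0.63 and 0.50 in the 3 LAP/Blnk preB-ALL arrays. In LAP preB-ALL it read -0.21, -0.42, -0.26 and -0.37, and in LAP B-ALL -0.64, -0.51, -0.63 and -0.72. Every Blnk-deficient tumour lay above every other, and LAP B-ALL lay wholly below LAP preB-ALL. Cpsf2, a partner of the cleavage endonuclease, read 0.73, 0.48, -0.08, 0.08 and 0.36 in Blnk preB-ALL and 0.97, 1.01 and 0.64 in LAP/Blnk preB-ALL. It read -0.22, 0.13, -0.44 and -0.54 in LAP preB-ALL and -0.95, -0.64, -0.77 and -0.33 in LAP B-ALL. LAP/Blnk preB-ALL lay wholly above both groups without the knockout and Blnk preB-ALL wholly above LAP B-ALL, while Blnk preB-ALL overlapped with LAP preB-ALL.

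Among the SR proteins, Srsf3 read 0.04, 0.21, 0.09, 0.32 and 0.01 in Blnk preB-ALL and 0.08, 0.16 and 0.57 in LAP/Blnk preB-ALL. It read -0.74, -0.79, -0.67 and -0.59 in LAP preB-ALL and -0.44, -0.21, -0.58 and -0.01 in LAP B-ALL. LAP preB-ALL was the lowest group and touched no other, though LAP B-ALL 3 at -0.58 came close to its highest array at -0.59. Tra2b, which activates exons through GA-rich enhancers, read 0.76, 1.37, 0.76, 0.55 and 0.23 in Blnk preB-ALL and 0.45, 0.29 and 0.91 in LAP/Blnk preB-ALL. It read -0.54, -0.24, -0.78 and -0.23 in LAP preB-ALL and -0.55, -0.45, -0.34 and -0.98 in LAP B-ALL. Every tumour with the Blnk knockout was above 0 and every other tumour below it, while the groups within either kind overlapped.

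Among the hnRNPs, Hnrnpr read 0.59, 0.36, 0.32, 0.59 and 0.16 in Blnk preB-ALL and 0.20, 0.15 and 0.59 in LAP/Blnk preB-ALL. It read -0.38, -0.52, -0.38 and -0.31 in LAP preB-ALL and -0.58, -0.15, -0.28 and -0.42 in LAP B-ALL. These tumours divided in the same way, with every knockout above every other. Hnrnpa0, which binds AU-rich elements of cytokine mRNAs, read 0.29, 0.07, 0.02, 0.14 and 0.05 in Blnk preB-ALL and 0.04, 0.05 and 0.10 in LAP/Blnk preB-ALL. It read -0.02, -0.66, -0.30 and -0.78 in LAP preB-ALL and -0.64, -0.67, -1.17 and -0.46 in LAP B-ALL. The Blnk-deficient tumours clustered tightly above all others, which spread widely. Hnrnpll, known for switching exons of the CD45 phosphatase in lymphocytes, ran the other way, at -0.82, -0.22, 0.15, -1.15 and 0.75 in Blnk preB-ALL and -0.73, -0.44 and -1.19 in LAP/Blnk preB-ALL. It read -0.61, 0.60, -0.15 and 1.73 in LAP preB-ALL and 1.5, 1.30, 2.36 and 0.93 in LAP B-ALL. LAP B-ALL lay above every Blnk-deficient tumour, and LAP preB-ALL overlapped with all 3 other groups.

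**Figure D3:**
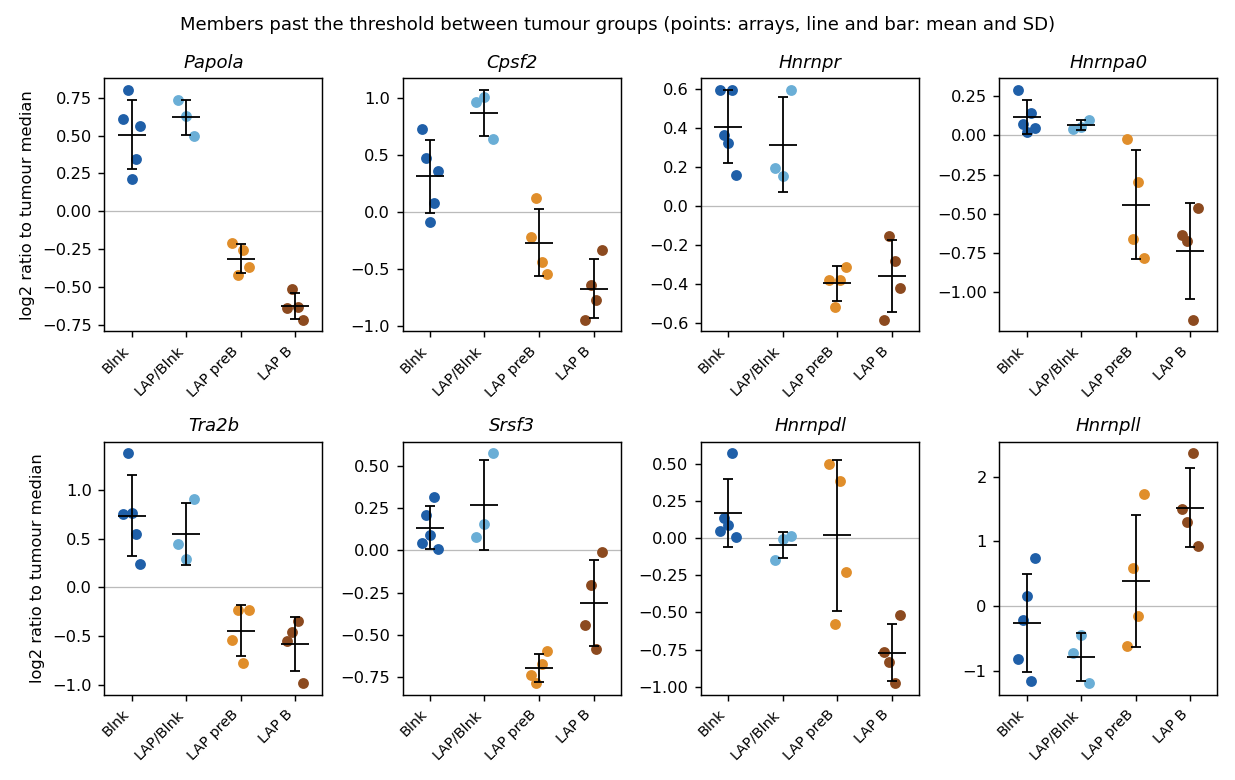
Values of Papola, Cpsf2, Hnrnpr, Hnrnpa0, Tra2b, Srsf3, Hnrnpdl and Hnrnpll (log2 ratio to the tumour median) in the 4 tumour groups, with a point for each array, and a line and bar for the mean and SD. Papola in LAP B-ALL lies between -0.72 and -0.51 and in Blnk preB-ALL between 0.21 and 0.80.

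The question of what the LAP transgene adds to Blnk loss was put by LAP/Blnk preB-ALL against Blnk preB-ALL. None of the 32 genes passed limma's test, where 0.0175% of all genes did. At an unadjusted p under 0.05, Cpsf2 alone was reached, at 0.56 ± 0.2 higher (adjusted p = 0.655), when 5.78% of all genes were. The only gene whose groups did not overlap was Hnrnph1, a G-run binding splicing regulator, at 0.28, 0.33 and 0.30 in LAP/Blnk preB-ALL against 0.15, 0.09, 0.01, -0.01 and 0.01 (difference 0.26). Of all genes 2.67% lay wholly higher and 2.69% wholly lower. The median difference of the 32 genes was -0.05 and that of all genes -0.02.

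Blnk loss within preB-ALL that carried the transgene was tested by LAP/Blnk preB-ALL against LAP preB-ALL. Here 4 of 32 genes rose and none fell, where 2.37% of all genes passed, 1.59% higher and 0.784% lower. Papola rose by 0.94 ± 0.12 (1.91-fold; limma, adjusted p = 0.00537), Srsf3 by 0.97 ± 0.14 (1.95-fold; adjusted p = 0.00626), Cpsf2 by 1.14 ± 0.21 (2.2-fold; adjusted p = 0.0169) and Hnrnpr by 0.71 ± 0.14 (1.64-fold; adjusted p = 0.0222). Tra2b stood at 0.99 (adjusted p = 0.0506) and Hnrnph1 at 0.70 (adjusted p = 0.0803). The groups lay wholly apart for 11 genes higher and 1 lower, where 9.08% and 8.18% of all genes did, and the median over the 32 genes was 0.25, against -0.03 over all genes. With the probe sets of each gene averaged no gene passed (Papola 0.60, Srsf3 0.20, Cpsf2 0.61, Hnrnpr 0.37), with only these 2 groups in the fit 1 did, and with array weights 7 did.

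Single-alteration leukaemias were compared as LAP preB-ALL against Blnk preB-ALL, which shares its arrays with the comparisons above. In it 3 genes fell, Papola by 0.82 ± 0.11 (1.77-fold lower; limma, adjusted p = 0.0228), Hnrnpr by 0.80 ± 0.12 (1.74-fold lower; adjusted p = 0.0398) and Srsf3 by 0.83 ± 0.13 (1.78-fold lower; adjusted p = 0.0398). Only 0.0819% of all genes passed, 0.076% lower and 0.00585% higher. Of the 32 genes 29 had a negative difference, with a median of -0.21 against 0.00 over all genes, and Tra2b stood at -1.18 (adjusted p = 0.0639). The count was 1 without any one of Blnk preB-ALL 1 to 4 or LAP preB-ALL 1 or 3. It was 0 without LAP preB-ALL 2, and also 0 when the probe sets of a gene were averaged (Papola -0.50, Hnrnpr -0.54, Srsf3 -0.24).

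LAP B-ALL against LAP preB-ALL, the 2 classes from the same genotype, gave no call among the 32 genes and none among all genes. At an unadjusted p under 0.05, 6 of the 32 genes were reached, against 11% of all. The groups did not overlap for 1 gene higher and 2 lower, where 1.84% and 3.37% of all genes lay wholly higher and lower. They were Srsf3 (0.39 ± 0.13 higher in LAP B-ALL; limma, adjusted p = 0.372), Papola (-0.31 ± 0.11; adjusted p = 0.379) and Hnrnpk, a poly(C)-binding hnRNP (-0.28 ± 0.098; adjusted p = 0.379).

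LAP B-ALL was then set against each of the Blnk-deficient groups. Against Blnk preB-ALL, 6 of 32 genes were lower in LAP B-ALL and none higher, where 1.45% of all genes passed, 0.971% lower and 0.48% higher. Papola fell by 1.13 ± 0.11 (2.19-fold lower; limma, adjusted p = 0.00052), Hnrnpr by 0.77 ± 0.12 (1.7-fold lower; adjusted p = 0.00953) and Tra2b by 1.32 ± 0.21 (2.49-fold lower; adjusted p = 0.0117). Hnrnpa0 fell by 0.85 ± 0.16 (adjusted p = 0.0232), Cpsf2 by 0.99 ± 0.18 (adjusted p = 0.0232) and Hnrnpdl by 0.94 ± 0.2 (adjusted p = 0.0338). Hnrnpdl read -0.76, -0.83, -0.97 and -0.52 in LAP B-ALL, wholly below Blnk preB-ALL (0.01 to 0.57), while LAP preB-ALL spread from -0.58 to 0.49. The count was 3 without Blnk preB-ALL 1 or 2 or any of LAP B-ALL 1 to 3. It was 10 without LAP B-ALL 4, the array with low Cebpb, which also stood apart in the markers given below. With array weights it was 14. With probe sets averaged, Papola at -0.57 and Cpsf2 at -0.52 (adjusted p = 0.174) no longer passed, and Hnrnpdl passed at -0.58.

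Against LAP/Blnk preB-ALL, 6 genes were lower and 1 higher in LAP B-ALL, where 3.52% of all genes passed, 2.21% lower and 1.32% higher. Papola fell by 1.25 ± 0.12 (2.37-fold lower; limma, adjusted p = 0.000527), Cpsf2 by 1.54 ± 0.21 (2.92-fold lower; adjusted p = 0.00237) and Tra2b by 1.13 ± 0.24 (2.19-fold lower; adjusted p = 0.0241). Hnrnpr, Hnrnpa0 and Srsf3 fell by 0.67, 0.80 and 0.58 (adjusted p = 0.0186, 0.0295 and 0.0432). Hnrnpll rose by 2.31 ± 0.54 (4.96-fold; adjusted p = 0.0357), having stood at 1.78 ± 0.48 against Blnk preB-ALL without passing (adjusted p = 0.0715). The 7 calls became 2 without LAP B-ALL 1 or LAP/Blnk preB-ALL 3, 3 without LAP B-ALL 2 or LAP/Blnk preB-ALL 1, 4 without LAP B-ALL 3 or LAP/Blnk preB-ALL 2, 4 with probe sets averaged, 10 without LAP B-ALL 4 and 16 with array weights. With probe sets averaged Papola passed at -0.67, while Cpsf2 (-0.81), Hnrnpr (-0.40) and Srsf3 (-0.25) did not.

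A comparison of all 8 Blnk-deficient with all 8 other tumours, added after the group values had been seen, takes up these differences with more arrays. It sets the average of 2 group means against that of the other 2, and here Blnk loss cannot be told apart from the transgene alone and the B-ALL class. Of the 32 genes 10 were higher and 1 lower, where 9% of all genes passed, 5.35% higher and 3.66% lower. The choice of the probe set of largest SD bears on this share as well. Papola was 1.04 ± 0.082 higher (2.05-fold; limma, adjusted p = 5.05e-05), Tra2b 1.15 ± 0.16 (2.23-fold; adjusted p = 0.00162), Cpsf2 1.06 ± 0.14 (2.09-fold; adjusted p = 0.0011), Hnrnpr 0.74 ± 0.092 (1.67-fold; adjusted p = 0.000891) and Srsf3 0.71 ± 0.096 (1.63-fold; adjusted p = 0.00139). Hnrnpa0 followed at 0.68 ± 0.12 (adjusted p = 0.00511), then Hnrnpa2b1, Tra2a, Hnrnpa3 and Hnrnph1 at 0.36, 0.51, 0.56 and 0.44 (adjusted p = 0.0369, 0.0369, 0.0495 and 0.0499). The calls of Hnrnpa2b1, Tra2a, Hnrnpa3 and Hnrnph1 were lost in 11 of 21, 10 of 22, 14 of 22 and 16 of 22 alternative settings. Hnrnpll was lower, at -1.48 ± 0.36 (2.79-fold lower; adjusted p = 0.0249).

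By role, 3 SR proteins, 5 hnRNPs and 2 cleavage and polyadenylation factors were higher in the pooled comparison, and all 7 of the last kind had a positive difference. Over the 32 genes 29 differences were positive, with a median of 0.28 against 0.00 over all genes. Papola, Hnrnpr, Srsf3, Tra2b and Hnrnpa0 did not overlap between the 2 sets of 8 tumours, where 0.632% of all genes lay wholly higher and 0.228% wholly lower. Papola, Hnrnpr, Cpsf2, Tra2b and Hnrnpa0 passed under all 22 alternative settings, and Srsf3 under all but the mean of its probe sets (0.24, adjusted p = 0.129). That mean also lowered Papola to 0.58, Cpsf2 to 0.56 and Hnrnpr to 0.47, and ended the call of Hnrnpa2b1 (0.19, adjusted p = 0.111). The count of 11 became 6 without LAP B-ALL 1 or 3 or LAP/Blnk preB-ALL 1 or 3, 7 without Blnk preB-ALL 4, LAP B-ALL 2, LAP/Blnk preB-ALL 2 or LAP preB-ALL 4, and 13 without LAP B-ALL 4.

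**Figure D4:**
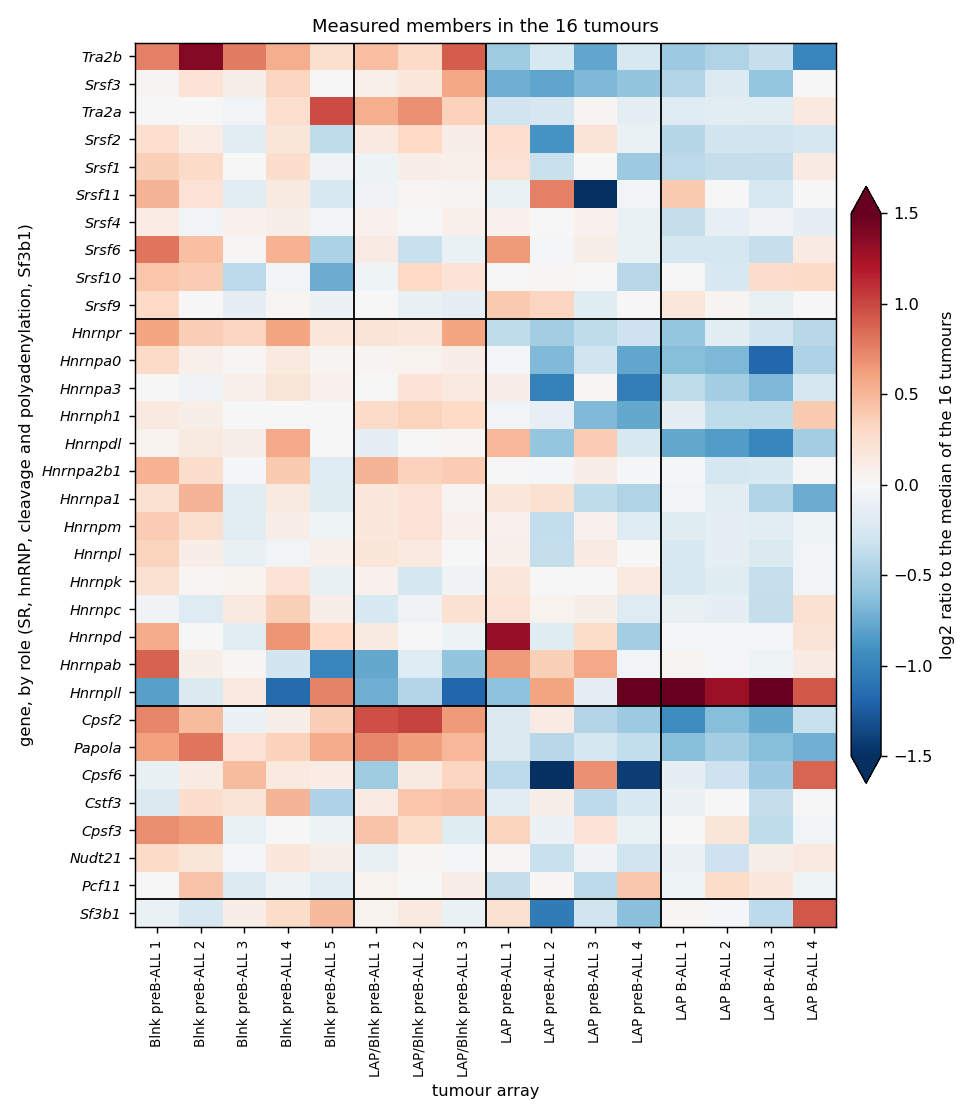
Heat map of the 32 genes (rows, by role) in the 16 tumours (columns, by group), coloured by log2 ratio to the tumour median. Papola, Tra2b and Hnrnpr are above 0 in the 8 Blnk-deficient tumours and below 0 in the other 8.

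Probe sets of 1 gene often differed in the tumours. Of the 88 probe sets 20 passed in the pooled comparison (18 higher, 2 lower), when 8.64% of all did (5.67% higher, 2.97% lower). Hnrnpr had 3 of 4 past the test (0.74, 0.47 and 0.31, with 0.37 for the other), Papola 2 of 4 (1.04 and 0.67, with 0.35 and 0.28 for the others) and Hnrnpll 2 of 2 (-1.36 and -1.48). Cpsf2 had 1 of 3, at 1.06, the others at 0.72 and -0.09. Srsf3 split widely: its probe sets stood at 0.71, 0.27 and 0.24, which passed, and at 0.23, 0.03 and -0.02, which did not. In LAP/Blnk preB-ALL against LAP preB-ALL, where the used probe set of Srsf3 stood at 0.97, its other 5 lay between -0.18 and 0.19. Sf3b1 was called on a probe set other than the one used, at 0.39 ± 0.069 (limma over probe sets, adjusted p = 0.00544), where the 2 sets of tumours did not overlap, while the used one stood at 0.22 and did not pass. Tra2a, Tra2b, Hnrnpa0 and Hnrnph1 have 1 probe set each, so no such check exists for them.

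Whether LAP did the same in tumours as in cells was tested as the difference of LAP/Blnk minus Blnk preB-ALL and BKO408 LAP minus BKO408. None of the 32 genes passed (1.05% of all genes did), and 6 were reached at an unadjusted p under 0.05 (13% of all genes). Cpsf6 came nearest, at -0.97 ± 0.22 (limma, adjusted p = 0.0518). In the tumours Cpsf6 spread from -0.54 to 0.32 in LAP/Blnk preB-ALL and from -0.11 to 0.48 in Blnk preB-ALL, with no order between the groups. Srsf1 followed at -0.53 ± 0.12 and Hnrnph1 at 0.29 ± 0.065 (both adjusted p = 0.0537). In the fit over probe sets, where 1.08% of all passed, the probe set of Hnrnph1 did (adjusted p = 0.0486). The fit shares a single spread between cell lines and the more variable tumours and made too many false calls on simulated data, so these p-values are too small, and with the spreads kept apart none of the 32 genes passed either. With the shared spread the count was 5 without Blnk preB-ALL 5, 3 without Blnk preB-ALL 1, 2 without Blnk preB-ALL 3, 1 without Blnk preB-ALL 4 or LAP/Blnk preB-ALL 3, and 5 with array weights.

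Other markers also differed between tumours, most in LAP B-ALL and in part through single arrays. The 6 measured erythroid markers had array medians of 0.81 to 4.01 in LAP B-ALL and -0.78 to 3.55 in LAP preB-ALL, against -0.34 to 0.48 in Blnk preB-ALL and -0.75 to -0.46 in LAP/Blnk preB-ALL, and all 6 were higher on average in LAP B-ALL than in Blnk preB-ALL. The 11 granulocyte markers ran from 1.60 to 2.83 in LAP B-ALL, -0.61 to 2.60 in LAP preB-ALL, -0.71 to 3.40 in Blnk preB-ALL and -0.62 to 0.84 in LAP/Blnk preB-ALL. LAP preB-ALL 4 alone gave the 3.55 and the 2.60, and Blnk preB-ALL 5 the 3.40. LAP B-ALL 4 gave the 0.81 and the 2.83, where LAP B-ALL 1 to 3 had erythroid medians of 3.34, 3.33 and 4.01. The monocyte and T-cell medians of LAP B-ALL 4 were 0.08 and 0.03, the lowest of its group. Group medians of granulocyte markers were 2.16 in LAP B-ALL and -0.43, -0.40 and -0.58 in LAP preB-ALL, Blnk and LAP/Blnk preB-ALL. Those of erythroid markers were 3.33 and -0.21, -0.24 and -0.61 in the same order. In the pooled comparison 1 of 6 erythroid and 2 of 11 monocyte markers were lower, 1 of 6 NK and 1 of 8 stromal markers higher, and no granulocyte, T-cell or plasma-cell marker passed, although T-cell markers had a median of -0.94 and granulocyte markers of -0.98. Of 9 B-lineage markers Vpreb1 was higher (5.63) and Blk (-2.42) and Ptprc (-0.79) lower. The 3′ minus 5′ signal of the transferrin receptor control, a sign of RNA integrity, had medians of 0.27 and 0.37 in the Blnk-deficient groups and -0.27 and -0.30 in LAP preB-ALL and LAP B-ALL, with overlapping ranges. The Gapdh control did not divide the groups so (-0.070, 0.039, -0.065 and -0.055 in the order Blnk, LAP/Blnk, LAP preB-ALL and LAP B-ALL). The actin control did, by less, with medians of 0.022, -0.009, -0.031 and -0.047 in that order and overlapping ranges. LAP B-ALL 4 read 0.57 on the transferrin receptor control. The median over the 32 genes was -0.16, -0.17, -0.34 and -0.23 in LAP B-ALL 1 to 3 and LAP preB-ALL 4, the arrays of highest erythroid medians. It was -0.01 in LAP B-ALL 4, and -0.15 in LAP preB-ALL 2, whose erythroid median was the lowest (-0.78). The part of these markers and controls in the results was not tested. In a mixture of cells, fewer cells of a type and less RNA per cell cannot be told apart. Of 19 cell-cycle genes, 3 were higher in the pooled Blnk-deficient tumours (Bub1b 0.71, Plk1 0.42 and Top2a 0.40) and 16 had a positive difference. In the cell lines 10 of these 19 were lower and 1 higher in BKO408 LAP, where 11.8% and 10.5% of all genes were. The median of the 19 genes was -0.52 in LAP B-ALL 4 and -0.19, -0.12 and 0.09 in LAP B-ALL 1 to 3. The part of the cell-cycle genes was likewise not tested.

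The rest of the machinery was read from 7 lists holding 121 measured genes of 139. The lists were chosen with earlier results of these data known, so their counts describe these arrays and are no independent test. In the cell lines 23 of them were higher and 12 lower in BKO408 LAP (28.9%), with a median of 0.02, where 10.5% of all genes were higher and 11.8% lower (22.3% in all). Single lists are small and nothing is read from their counts alone; that of the tri-snRNP genes lies under this share. Among other cleavage and polyadenylation factors 4 of 17 rose and 1 fell, with Rbbp6 at 0.71 (limma, adjusted p = 3.09e-06) and the scaffold Sympk at -0.19 (adjusted p = 0.0055). Of 29 further splicing regulators 6 rose and 5 fell, with Taf15 at 0.72 (adjusted p = 0.000161) and Tia1 at -0.33 (adjusted p = 0.000304). The U1, Sm and LSm genes gave 4 higher and 1 lower of 20 (Lsm8 0.30, Snrpn -0.19), U2 genes 3 and 2 of 16 (Sf3a1 0.32, Sf3b2 -0.14) and tri-snRNP genes 1 and 2 of 21 (Usp39 0.09, Prpf6 -0.16). Kinases of SR proteins gave 2 and 1 of 8 (Prpf4b 0.16, Clk1 -0.20), and the nonsense-mediated decay genes, which clear SR transcripts with poison exons, 3 and 0 of 10 (Smg6 0.62).

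In the pooled tumours 29 of the 121 genes were higher and 3 lower in the Blnk-deficient ones (26.4%), with a median of 0.17, where 9% of all genes passed (5.35% higher, 3.66% lower). Lists and comparison were both set with earlier results of these data known, so this excess is a description and no independent support. The further splicing regulators gave 12 higher and 0 lower of 29 (Mbnl3 1.23; limma, adjusted p = 0.00173), tri-snRNP genes 6 and 1 of 21 (Prpf19 0.87, Prpf6 -0.26) and U2 genes 4 and 0 of 16 (Sf3b2 0.88). Other cleavage and polyadenylation factors gave 2 and 1 of 17 (Cstf2t 1.24, Cpsf4 -0.48), decay genes 2 and 1 of 10 (Smg6 0.80, Smg9 -0.55), U1, Sm and LSm genes 2 and 0 of 20 (Snrpb 0.35) and SR kinases 1 and 0 of 8 (Dyrk1a 0.78). Part of this count lay on chromosome 19, where 30.6% of 569 genes were higher and the median was 0.17: it held 7 of the listed genes, 6 of them higher, Sf3b2, Prpf19 and Cstf2t included. None of the 32 genes lies there. Papola, Cpsf2 and Cpsf3 lie on chromosome 12, where 67 of 575 genes (11.7%, against 5.35% of all genes) were higher and 5 lower, with a median of 0.06. Both listed genes on chromosome 12, Rbm25 and Sf3b6, were higher too, and the part of the chromosome in the differences of Papola and Cpsf2 was not tested. Between single groups, the 121 genes gave no call in LAP/Blnk against Blnk preB-ALL, in LAP preB-ALL against Blnk preB-ALL, or in LAP B-ALL against LAP preB-ALL. They gave 11 higher and 3 lower in LAP/Blnk against LAP preB-ALL (2.37% of all genes passed), 5 of the 11 on chromosome 19. They gave 15 lower in LAP B-ALL against Blnk preB-ALL (1.45%), and 18 lower, 7 of them on chromosome 19, and 1 higher in LAP B-ALL against LAP/Blnk preB-ALL (3.52%).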

How the data were processed

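Biotinylated cRNA from total RNA of 24 samples was hybridised to Affymetrix arrays, per the labels' protocols. The authors processed the arrays with MAS5, per the submitters' processing notes, and deposited log2 ratios (the base is not stated and was taken as 2) whose median per probe set was 0 within the cell lines and within the tumours. No source used here states the scaling applied before, and intensities and detection calls were not used here. Depth has no meaning for arrays; their number limits the precision.

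Genes were named from the platform annotation, which can be old. Probe sets with several symbols (551) or none (15692) were left out, and those naming a member beside another gene (3) with them. limma 3.58.1 in R 4.3.3 (lmFit, eBayes without a trend, two-sided) was fitted over all 17097 genes, or all 28898 probe sets, for the 8 cell-line arrays and separately for the 16 tumours; p-values were adjusted by Benjamini-Hochberg with a threshold of 0.05. The fits were tested on simulated data, where that of the difference of LAP effects made too many false calls, so a fit with the spreads of cells and tumours kept apart was added. Single values were tested by exact two-sided permutation. Motif searches used RefSeq promoters, build GRCm38.p6.

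The members and lists were chosen with earlier results of these data known. Per comparison the members past the threshold were named in full, or, with none, up to 3 members without overlap; per list, the largest rise and fall. Titles give replicate numbers, but of 25 same-numbered pairs of arrays only 8 correlated over 0.1 in their deviations (-0.64 to 0.38), so the numbers were not taken as pairs. Alternatives were the mean of probe sets, the arrays in the fit, array weights, a trend, quantile normalisation, median centring, the more variable genes, a replicate block and leaving out each array.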

Additional observations from a re-analysis of the deposited data

Results flagged for a closer look

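Of 160 pairs of a gene and a group of 4 or 5 arrays, 14 held an array far from the rest of its group, where chance gives about 1 in 20. In the cell lines, BKO408 1 was high for Hnrnpa3 (0.0779) and Hnrnpab (0.0986). BKO408 LAP 4 was low for Hnrnpa0 (-0.0363) and high for Cpsf6 (0.507) and Cstf3 (0.159), and BKO408 LAP 2 was low for Sf3b1 (-0.0869). The Cpsf6 array lay above the other LAP arrays, so the groups stayed separate without it.

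In the tumours, Blnk preB-ALL 5 was high for Tra2a (0.98) and Blnk preB-ALL 4 for Hnrnpdl (0.57). LAP preB-ALL 4 was low for Srsf10 (-0.41) and LAP preB-ALL 3 high for Hnrnpa2b1 (0.10). LAP B-ALL 4 was high for Srsf1 (0.13), Srsf6 (0.12), Tra2a (0.15) and Hnrnpd (0.20), 4 of the 14 in 1 array. It is the array whose Cebpb probe set lay at -3.11, in the range of Blnk preB-ALL. It also stood apart from LAP B-ALL 1 to 3 in erythroid markers (median 0.81) and cell-cycle genes (median -0.52).

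The effect of LAP differed between tumours and cells for the only Hnrnph1 probe set, by 0.29 (limma over probe sets, adjusted p = 0.0486). That fit made too many false calls on simulated data. With the spreads of cells and tumours kept apart the adjusted p was 0.174.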

How the results depend on the processing

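No named difference reversed its direction. Over 779 pairs of a named difference (45) and an alternative, the call was kept in 584 and lost in 195. The cause of each change was not tested.

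Leaving out each array in turn gave 12 to 15 genes called in the cell lines, 0 to 0 in LAP/Blnk against Blnk preB-ALL, 0 to 0 in LAP B-ALL against LAP preB-ALL, 3 to 4 in LAP/Blnk against LAP preB-ALL, 0 to 4 in LAP preB-ALL against Blnk preB-ALL, 3 to 10 and 2 to 10 in LAP B-ALL against Blnk and LAP/Blnk preB-ALL, 6 to 13 in the pooled comparison and 0 to 5 for the difference of LAP effects. For probe sets, in the same order, these ranges were 27 to 33, 0 to 0, 0 to 1, 3 to 4, 0 to 4, 1 to 20 (8 with all arrays), 2 to 18 (10 with all arrays), 10 to 27 and 0 to 7. The 1 came without LAP preB-ALL 4, and the 20, the 18 and the 27 without LAP B-ALL 4.

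With the mean of all probe sets the counts became 0 (from 4) in LAP/Blnk against LAP preB-ALL, 0 (from 3) in LAP preB-ALL against Blnk preB-ALL, 4 (from 7) in LAP B-ALL against LAP/Blnk preB-ALL and 1 (from 0) for the difference of LAP effects. With only the 2 groups in the fit the first and second became 1 and 1. Array weights gave 14 and 16 in LAP B-ALL against Blnk and LAP/Blnk preB-ALL, 7 in LAP/Blnk against LAP preB-ALL, and 5 for the difference of LAP effects. Quantile normalisation gave 0 in LAP preB-ALL against Blnk preB-ALL (also 0 for its 3 probe sets, and 1 with median centring) and 1 for the difference of LAP effects. The more variable genes alone gave 0 in LAP preB-ALL against Blnk preB-ALL. For probe sets, the 1 call of the difference of LAP effects became 0 with the spreads kept apart and 0 with median centring. In the cell lines all 24 arrays in the fit gave 0 (from 14).

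With the replicate number as a block, over shared numbers only, 14 genes were called in the cell lines, 11 in LAP B-ALL against LAP/Blnk preB-ALL, and 0 in each of the other 5 comparisons of tumour groups. The block left fewer arrays, and the numbers are not known to pair samples. The own number's correlation was the highest for 7 arrays.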
